A study of Mus musculus with 66 samples.

Results

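The complement genes C1qa, C1qb, C1qc, C3, C4b and Serping1 were followed across 66 RNA-seq libraries of mouse nervous tissue by tissue, strain and Rorb allele. They are a fixed list of 6 symbols among the 45706 genes of the count tables, and all 6 were matched to an Ensembl identifier and passed the low-count filter in every comparison. Libraries of brain hemi-sections (1 side of a sagittally cut brain) and of spinal cords came from the same 24 mice, and 6 other mice gave cortex, hippocampus and cerebellum. Mice homozygous for a spontaneous Rorb mutation were compared with wild type mice, 3 per group except for 4 of each of the alleles h2, h3 and h4.

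Rorb h1/h1 mice arose on C57BL/6J and carry a duplication upstream of Rorb that takes in the first exon of the transcript Rorb1. The h2 and h3 alleles arose on albino B6(Cg)-Tyr c-2J/J, and their causal mutations are not known. Rorb h4/h4 mice arose on a B6.129S7-Il1r1 tm1/mx/J stock, which carries a targeted allele of the interleukin 1 receptor gene Il1r1, and have a premature stop codon in Rorb. Rorb h5/h5 mice arose on DBA/1J and have lost the start codon of Rorb1. The same 3 C57BL/6J mice were the controls of the h1, h2, h3 and h4 alleles, so those 4 comparisons share their control libraries, and 3 DBA/1J mice were the controls of h5. Brain and spinal cord were taken at 8.0 weeks from C57BL/6J and Rorb h1/h1 mice and at 7.9 to 9.6 weeks from the other groups, and the brain regions of DBA/1J and Rorb h5/h5 mice at 7.0 weeks. Groups held both sexes. Each allele is 1 stock, and the identifier series of the h2, h3 and h4 mice held no C57BL/6J mouse, so in these alleles genotype, background and cohort cannot be told apart.

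Complement is a set of secreted proteins that tag surfaces for removal. C1q, built from the chains of C1qa, C1qb and C1qc, recognises a target and starts the classical pathway. The activated C1 complex cleaves C4, whose fragments help form the enzyme that cleaves C3, the protein on which the pathways converge. Serping1 encodes the C1 inhibitor, which blocks the proteases of the C1 complex. In the central nervous system C1q is made mainly by microglia, while C3 and C4 have been linked to astrocytes and other glia, and the classical pathway is known for its part in the removal of synapses.

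The 3 C1q genes lie side by side on the reverse strand of chromosome 4 (GRCm38.p6), C1qa (ENSMUSG00000036887) at chr4:136895916-136898844, C1qb (ENSMUSG00000036905) at chr4:136880126-136886200 and C1qc (ENSMUSG00000036896) at chr4:136889801-136892936. C3 (ENSMUSG00000024164) is at chr17:57203967-57228136, C4b (ENSMUSG00000073418) at chr17:34728139-34743902 and Serping1 (ENSMUSG00000023224) at chr2:84765360-84775444. RefSeq promoter sequences were matched for C1qb, C1qc and C3. Since the C1q genes had near-parallel levels across tissues, the 250 bases before the starts of C1qb (chr4:136886201-136886450, reverse strand) and C1qc (chr4:136892915-136893164, reverse strand) are shown from 5′ to 3′, with matches to GAGGAA on either strand, the core of the site of the myeloid factor PU.1, in capitals.
C1qb: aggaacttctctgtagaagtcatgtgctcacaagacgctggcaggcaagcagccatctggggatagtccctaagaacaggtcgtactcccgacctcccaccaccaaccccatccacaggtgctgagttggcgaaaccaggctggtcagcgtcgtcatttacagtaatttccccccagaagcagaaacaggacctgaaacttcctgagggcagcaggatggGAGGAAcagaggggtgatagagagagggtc
C1qc: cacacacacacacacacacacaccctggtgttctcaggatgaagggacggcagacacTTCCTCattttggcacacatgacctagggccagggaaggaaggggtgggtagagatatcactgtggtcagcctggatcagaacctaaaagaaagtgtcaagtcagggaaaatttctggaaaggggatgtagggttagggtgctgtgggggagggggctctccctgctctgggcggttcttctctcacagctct

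The match in C1qb began 30 bases before the start, and that in C1qc, on the other strand, 193 bases before it. Over windows of 300 bases (250 before to 50 after the start), GAGGAA was present on either strand in 28.3% of 32851 promoters and absent from that of C3. A core of interferon response elements, GAAA followed 2 bases later by another GAAA, was in 3.44% of promoters, and TTCNNNGAA, the core bound by STAT factors, in 8.3%. Neither was in the window of C1qb, C1qc or C3, which says only that these letters are not there, so no matches of different motifs overlapped.

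Summed expected counts per library ranged from 32889755 to 59120536. Rorb itself, which checks the labels, was at 51.4 to 61.7 CPM (counts scaled to library size, with factors set over all libraries) in C57BL/6J brain, at 10.5 to 14.9 CPM in Rorb h4/h4 brain and at 27.5 to 31.2 CPM in Rorb h2/h2 brain, but at 51 to 55.2 CPM in Rorb h3/h3 brain and at 74.2 to 81.4 CPM in Rorb h5/h5 brain. The Rorb levels of DBA/1J and Rorb h1/h1 brains are not given here, so the Rorb h5/h5 values stand beside those of another strain. Cerebellum markers summed to 2965 to 3178 CPM in cerebellum and at most 560 CPM elsewhere, and Hox genes, which mark the cord, to 196 to 238 CPM in spinal cord and at most 6.85 CPM elsewhere. Hippocampus markers (4 genes) separated the regions less, at 214 to 371 CPM in hippocampus and 87.1 to 206 CPM in cortex, with Rorb h5/h5 cortex replicate 1 at 206 CPM next to Rorb h5/h5 hippocampus replicate 2 at 214 CPM. In 1 of the 24 brain libraries, DBA/1J replicate 1, cerebellum markers summed to 21.8 CPM against 262 to 560 CPM in the others. In Rorb h5/h5 spinal cord replicate 3, meningeal markers summed to 672 CPM against 66.8 to 117 CPM in the other 23 cords and Schwann cell markers to 668 CPM against 85.9 to 156 CPM. The 3 region libraries of Rorb h5/h5 replicate 3 are labelled female but had Ddx3y at 58.7 to 83 CPM and Xist at 0 to 0.308 CPM.

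The C1q genes had the highest level per unit length in brain, by the deposited TPM, a level normalised for transcript length and depth. Over the 24 brain libraries the median was 46.5 TPM for C1qa, 40.4 TPM for C1qb and 35 TPM for C1qc, against 12.3 TPM for C4b, 9.7 TPM for Serping1 and 1.17 TPM for C3. The order of group means C1qa, C1qb, C1qc, C4b, Serping1, C3 held in all 11 groups of brain, cortex and hippocampus. C1qa and C1qb overlapped between replicates in most of these groups, so that their order is not separated from the spread, while C3 was last in all of them, with no overlap with Serping1.

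In spinal cord the order differed. C3 had a median of 39.1 TPM and C4b of 33.3 TPM, among the C1q genes at 45.9 TPM (C1qa), 41.8 TPM (C1qb) and 32.6 TPM (C1qc), while Serping1 was last at 5.22 TPM. Cerebellum had yet another order: Serping1, with a median of 17.9 TPM, was between C1qa at 19 TPM and C1qb at 17.1 TPM, and its replicates overlapped those of C1qa. C1qa had the highest mean in all 20 groups. The order depended on the division by length. By CPM the longer C4b was above the C1q genes in C57BL/6J brain, and C3 counts in brain were few (50 to 185 expected counts per library) with an effective length estimated anywhere from 863 to 4897 bases, so that its TPM there is imprecise.

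**Figure D1:**
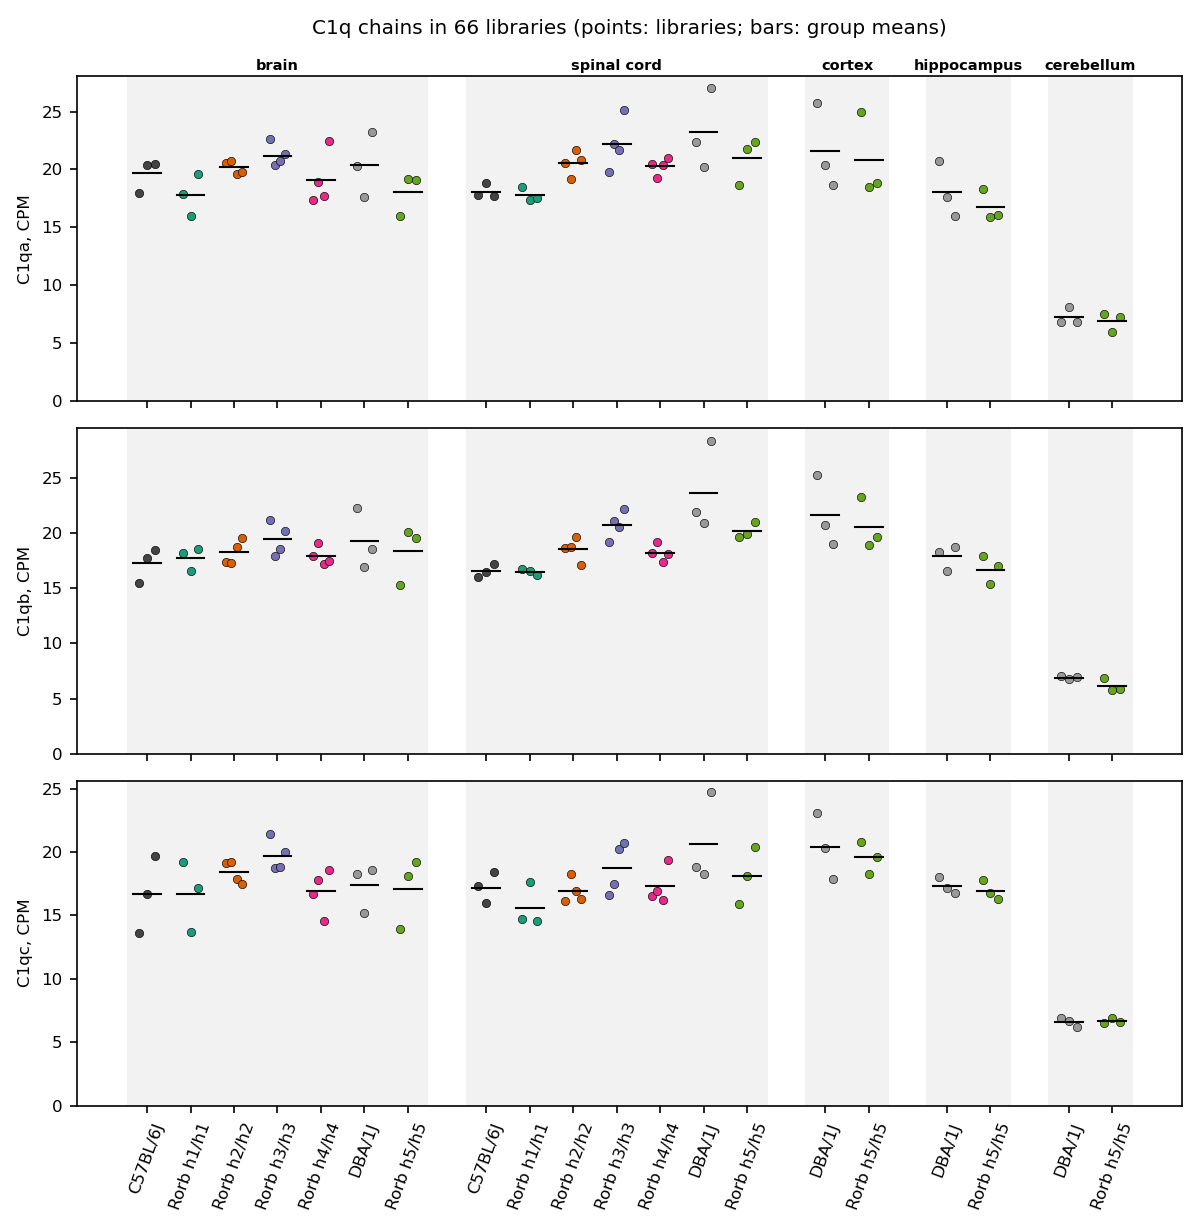
CPM of C1qa, C1qb and C1qc in each of the 66 libraries by group and tissue, with 1 point per library and a bar at each group mean. The 3 genes sit near 20 CPM in brain, cortex, hippocampus and spinal cord, and below 8.5 CPM in all 6 cerebellum libraries.

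The C1q chains kept close to fixed proportions. Over all 66 libraries the ratio of C1qb to C1qa in TPM ran from 0.734 to 1.11, with a median of 0.897, and that of C1qc to C1qa from 0.626 to 0.95, with a median of 0.754. Over the means of the 20 groups, Pearson's r between any pair of the 3 was 0.99 on log2 CPM. Among libraries within a group, as deviations from the group mean, r between pairs was 0.54 to 0.79 over 24 brains and 0.61 to 0.71 over 24 cords. These are descriptions over libraries that share tissue and depth.

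In edgeR no C1q gene was called between brain and spinal cord of either wild type strain. C1qa was at 18, 20.4 and 20.5 CPM in the brains and 17.8, 18.8 and 17.7 CPM in the spinal cords of the 3 C57BL/6J mice. C1qb was at 15.5, 17.8 and 18.5 CPM in brain and 16, 16.5 and 17.2 CPM in cord. C1qc was at 13.6, 16.7 and 19.7 CPM in brain and 17.3, 16 and 18.4 CPM in cord. The ranges of both tissues overlapped for each C1q gene, and the log2 differences of cord from brain were -0.13 (C1qa), -0.07 (C1qb) and 0.03 (C1qc), with edgeR adjusted p from 0.14 to 0.83. In DBA/1J they were 0.17, 0.28 and 0.23 (edgeR adjusted p = 0.29, 0.11 and 0.16), and without DBA/1J brain replicate 1 C1qb was called higher in cord (0.40, edgeR adjusted p = 0.025). Within the 24 mice, the ratio of cord to brain ran from 0.863 to 1.18 for C1qa, from 0.872 to 1.52 for C1qb and from 0.767 to 1.33 for C1qc. In bulk tissue, fewer cells of a type and less RNA per cell cannot be told apart.

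C3, the protein on which the complement pathways converge, differed most between the tissues. C57BL/6J brains had 1.45, 1.6 and 1.64 CPM, and their spinal cords 86.7, 86 and 80 CPM. Every cord was far above every brain. Cord exceeded brain by a log2 difference of 5.73 (SE 0.08, n = 3 mice), or 53.2-fold, with an edgeR adjusted p of 5.9e-14, the smallest p of the 17647 genes tested. This comparison of tissues called 56.9% of genes, and 3 of the 6 complement genes were called.

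In DBA/1J, C3 was at 4.22, 1.97 and 4.21 CPM in brain and at 113, 132 and 163 CPM in cord, again with no overlap. Its log2 difference was 5.27 (SE 0.24), or 38.7-fold (edgeR adjusted p = 1.2e-07), in a comparison that called 50.8% of 17276 genes. Across all 24 mice of every genotype, the cord held 24.1 to 90.6 times the C3 of the brain of the same mouse, with a median of 47.6.

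C4b, which encodes C4, was also higher in cord. Its C57BL/6J values were 23.7, 23.6 and 22.3 CPM in brain and 61.9, 68.7 and 71.7 CPM in cord, and its DBA/1J values 28.7, 21.4 and 28.6 CPM in brain and 78.7, 82.3 and 94.6 CPM in cord. In neither strain did the tissues overlap. The log2 difference was 1.53 (SE 0.07, 2.89-fold, edgeR adjusted p = 3.5e-10) in C57BL/6J and 1.68 (SE 0.12, 3.21-fold, edgeR adjusted p = 1.9e-06) in DBA/1J, and the ratio of cord to brain was 2.11 to 3.85 in the 24 mice.

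Serping1, the inhibitor, went the other way. In C57BL/6J it was at 6.78, 6.99 and 6.97 CPM in brain and at 4.85, 3.68 and 3.5 CPM in cord, with no overlap. It was lower in cord by a log2 difference of -0.79 (SE 0.13), to 0.578 of the brain level (edgeR adjusted p = 0.00019). In DBA/1J it was at 7.09, 5.58 and 7 CPM in brain and 4.47, 3.79 and 6.08 CPM in cord, ranges that overlap. There the log2 difference was -0.47 (SE 0.18, edgeR adjusted p = 0.057), and -0.49 (SE 0.14, edgeR adjusted p = 0.019) with the mouse as a block. It also passed without brain replicate 2 (-0.57, edgeR adjusted p = 0.041) and without cord replicate 3 (-0.67, edgeR adjusted p = 0.011), with DESeq2 (adjusted p = 0.033 on the same genes) and without the low-count filter (edgeR adjusted p = 0.039). It was lower in cord in 23 of 24 mice, the exception being the Rorb h5/h5 mouse of the cord with high meningeal markers.

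Marker lists moved between these tissues too. In C57BL/6J cord against brain, 10 of 10 oligodendrocyte genes were higher (median log2 difference 1.73), 5 of 11 reactive astrocyte genes were higher and 2 lower (Gfap 2.92 higher), 8 of 10 meningeal genes were lower (Igf2 -2.79 and Dcn -0.96) and 10 of 10 choroid plexus genes were lower. Microglia markers were split, 2 higher and 2 lower of 15, with a median of -0.08 beside -0.001 for all genes. The part of these cell types in the differences of C3, C4b and Serping1 was not tested.

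**Figure D2:**
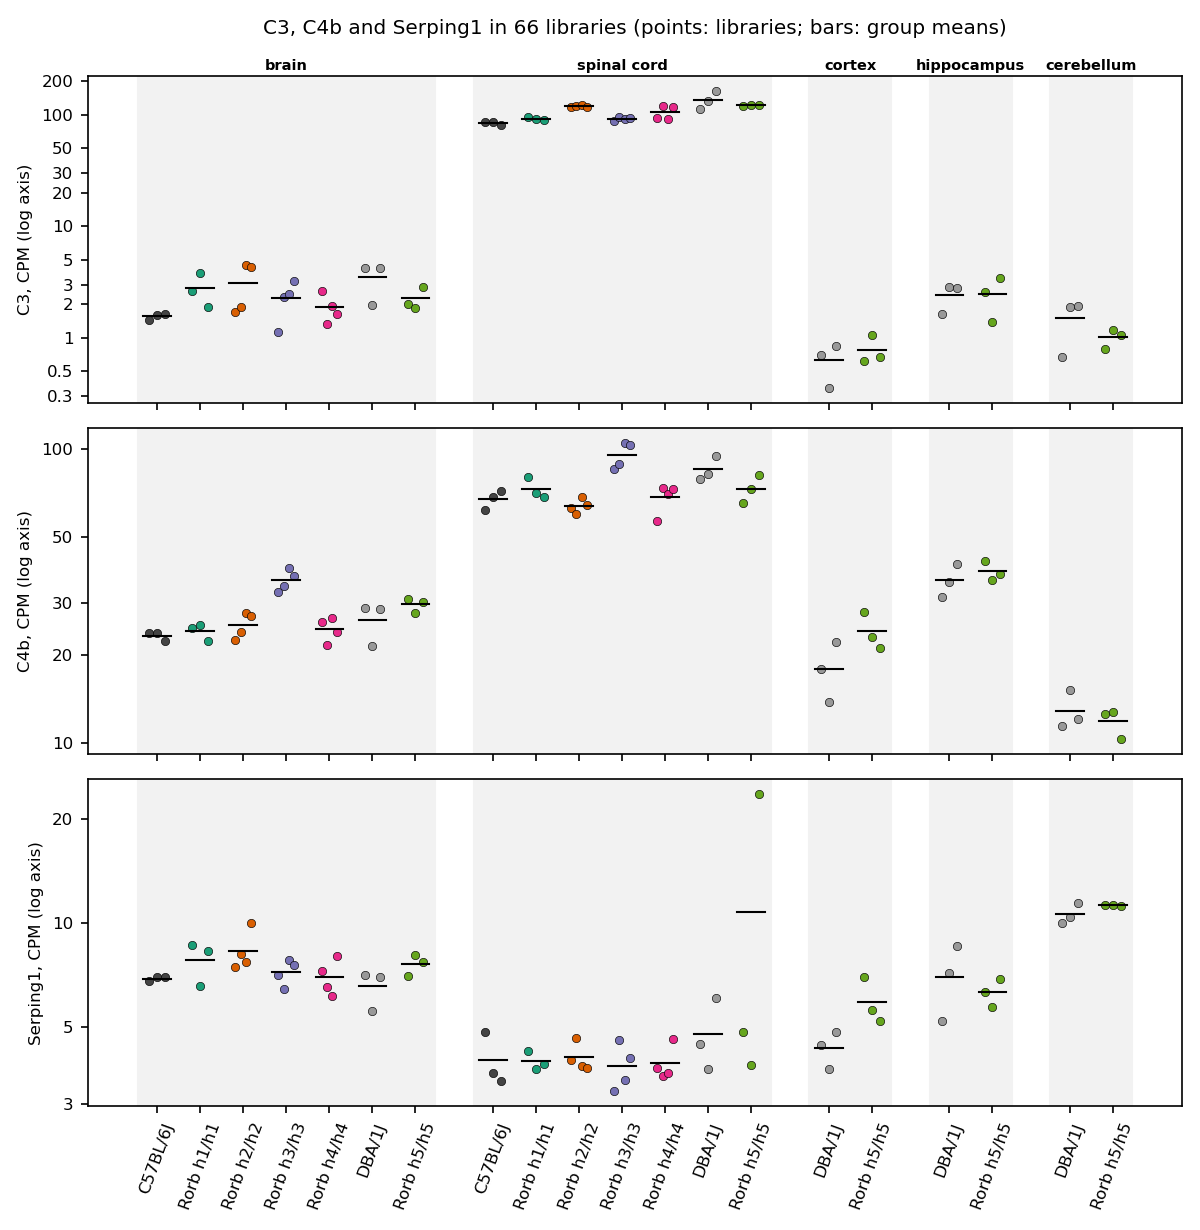
CPM of C3, C4b and Serping1 on a log axis in each of the 66 libraries by group and tissue, with 1 point per library and a bar at each group mean. C3 lies at 80 to 163 CPM in the 24 cords and at 4.46 CPM or less in every other library, and Rorb h5/h5 spinal cord replicate 3 stands alone in Serping1 at 23.6 CPM.

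Cerebellum stood apart from the forebrain regions by its low C1q. DBA/1J cerebella had 6.84, 8.18 and 6.84 CPM of C1qa, against 25.7, 20.4 and 18.7 CPM in cortex and 20.7, 17.6 and 16 CPM in hippocampus of the same mice. C1qb was at 7.03, 6.73 and 6.96 CPM in cerebellum against 25.3, 20.8 and 19 CPM in cortex. C1qc was at 6.89, 6.69 and 6.17 CPM in cerebellum against 23.1, 20.3 and 17.9 CPM in cortex. No cerebellum overlapped a cortex in any of the 3 genes. The log2 differences were -1.61 (SE 0.14), -1.69 (SE 0.12) and -1.67 (SE 0.12) for C1qa, C1qb and C1qc, with edgeR adjusted p from 8.6e-06 to 2e-06.

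Cerebellum against cortex called 58.1% of 17329 genes, and all 6 complement genes. Serping1 was higher in cerebellum, at 9.98, 10.4 and 11.4 CPM against 4.45, 3.79 and 4.84 CPM in cortex, with no overlap. Its log2 difference was 1.25 (SE 0.14), or 2.37-fold (edgeR adjusted p = 3.9e-05), and cerebellum was above cortex in 6 of 6 mice of both genotypes. C4b was lower, at 11.4, 15.2 and 12.1 CPM against 17.8, 13.8 and 22 CPM, ranges that overlap (log2 difference -0.51, SE 0.17, edgeR adjusted p = 0.031). It was no longer called without cortex replicate 3, cerebellum replicate 1 or cerebellum replicate 3 (edgeR adjusted p = 0.075 to 0.12). C3 was at 0.678, 1.87 and 1.91 CPM against 0.705, 0.357 and 0.85 CPM. Its log2 difference of 1.18 (SE 0.45, edgeR adjusted p = 0.045) fell short of the threshold with the mouse as a block (1.11, edgeR adjusted p = 0.067) and without cortex replicate 1 or 2 or cerebellum replicate 2 or 3 (0.90 to 1.26, edgeR adjusted p = 0.066 to 0.15).

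Microglia markers were low in cerebellum as well. All 15 of 15 were lower than in cortex, with a median log2 difference of -2.06 (Ctss -1.46), and their summed level was 123 to 137 CPM in cerebellum against 408 to 502 CPM in cortex. The summed C1q level was 0.136 to 0.175 of the microglia sum in cerebellum, 0.126 to 0.153 in cortex, 0.126 to 0.154 in hippocampus, 0.145 to 0.173 in brain and 0.135 to 0.164 in spinal cord. Beside the higher Serping1, 9 of 10 meningeal genes (median 1.08) and 10 of 10 choroid plexus genes (median 2.74) were higher in cerebellum than in cortex, and their part was not tested.

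Hippocampus had more C3 and C4b than cortex. C4b was at 31.4, 35.2 and 40.5 CPM in DBA/1J hippocampus against 17.8, 13.8 and 22 CPM in cortex, and C3 at 1.64, 2.86 and 2.79 CPM against 0.705, 0.357 and 0.85 CPM. Neither gene overlapped between the regions. The log2 difference was 1.00 for C4b (SE 0.16, 2-fold, edgeR adjusted p = 0.0034) and 1.92 for C3 (SE 0.36, 3.79-fold, edgeR adjusted p = 0.0059). Serping1, at 5.21, 7.18 and 8.57 CPM in hippocampus, was called as well (0.68, SE 0.20, edgeR adjusted p = 0.04), but not without cortex replicate 1 or 2 or hippocampus replicate 2 or 3 (edgeR adjusted p = 0.06 to 0.16). The C1q genes were not called (-0.28 to -0.24, edgeR adjusted p = 0.14 to 0.25), though without cortex replicate 3 C1qb (-0.37, edgeR adjusted p = 0.046) and C1qc (-0.33, edgeR adjusted p = 0.04) were. The comparison called 20.6% of 17166 genes, and 3 of the 6 complement genes. Meningeal genes (5 of 10) and choroid plexus genes (9 of 10) were also higher in hippocampus, and the astrocyte gene Gfap had a log2 difference of 1.28.

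Against cerebellum, hippocampus was higher in C1qa, C1qb, C1qc (log2 differences 1.32, 1.39 and 1.41) and C4b (1.48, SE 0.12, edgeR adjusted p = 8.3e-07) and lower in Serping1 (-0.59, SE 0.16, edgeR adjusted p = 0.0073), in a comparison that called 64% of 17332 genes. C3 was not called (0.71, SE 0.35, edgeR adjusted p = 0.097) but was with the mouse as a block (0.77, SE 0.23, edgeR adjusted p = 0.016).

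More of these genes were called between the wild type strains in spinal cord than in brain. The identifier series of the DBA/1J mice held no C57BL/6J mouse, and their ages were 8.4 to 8.9 weeks against 8.0 weeks. Strain, cohort and age therefore cannot be told apart in these comparisons. In DBA/1J against C57BL/6J cord, 4 of the 6 genes were called, all higher in DBA/1J, where 21.3% of 17318 genes were called and 8.55% called higher. C3 was at 113, 132 and 163 CPM in DBA/1J against 86.7, 86 and 80 CPM (0.68, SE 0.10, 1.61-fold, edgeR adjusted p = 0.00021). C1qb was at 21.9, 20.9 and 28.4 CPM against 16, 16.5 and 17.2 CPM (0.51, SE 0.10, 1.43-fold, edgeR adjusted p = 0.0029). For both genes every DBA/1J cord was above every C57BL/6J cord.

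C4b was at 78.7, 82.3 and 94.6 CPM against 61.9, 68.7 and 71.7 CPM (0.33, SE 0.07, 1.26-fold, edgeR adjusted p = 0.0037), and C1qa at 22.4, 20.2 and 27 CPM against 17.8, 18.8 and 17.7 CPM (0.35, SE 0.10, 1.28-fold, edgeR adjusted p = 0.018). Groups did not overlap in these either. C1qc (0.26, SE 0.11, edgeR adjusted p = 0.11) and Serping1 (0.25, SE 0.18, edgeR adjusted p = 0.37) were not called. The median over the 6 genes was 0.34 beside 0.006 over all genes. DBA/1J replicate 3 was the highest of the 6 cords compared for every gene. Without it C1qb (0.36), C3 (0.53) and C4b (0.25) were still called (edgeR adjusted p = 2e-05 to 0.0075), while C1qa was not (0.23, edgeR adjusted p = 0.051), nor was C1qa without C57BL/6J replicate 1 or 3 (edgeR adjusted p = 0.07 and 0.053). Without DBA/1J replicate 3, C1qc was 0.10 and Serping1 0.04. C1qc passed without the low-count filter (0.25, edgeR adjusted p = 0.028) and with labelled sex as a covariate (0.30, edgeR adjusted p = 0.046).

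Microglia markers were higher in DBA/1J cord too, summing to 427, 403 and 516 CPM in DBA/1J and 364, 368 and 355 CPM in C57BL/6J. Of 15 markers, 5 were higher and 1 lower (median 0.24, Ctss 0.68 with edgeR adjusted p = 0.00068). Of 20 interferon response genes, 5 were higher (median 0.27). Astrocyte markers summed to less in every DBA/1J cord, at 6386 to 6594 CPM against 6889 to 7020 CPM, with 1 of 10 called higher and 3 lower. Reactive astrocyte markers summed to 1349, 1378 and 1573 CPM against 1575, 1677 and 1652 CPM, although 3 of 11 tested were called higher and 1, Gfap, lower (median 0.24). Their part in the strain difference was not tested.

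In brain, 11.2% of 17368 genes differed between the strains, and C3 was the 1 complement gene called. It was at 4.22, 1.97 and 4.21 CPM in DBA/1J and 1.45, 1.6 and 1.64 CPM in C57BL/6J, with no overlap (1.15, SE 0.28, 2.23-fold, edgeR adjusted p = 0.027). The call was lost without DBA/1J replicate 1, the library low in cerebellum markers (0.98, edgeR adjusted p = 0.072), and without DBA/1J replicate 3 or any 1 of the C57BL/6J brains (0.99 to 1.18, edgeR adjusted p = 0.076 to 0.094). The other 5 genes had log2 differences of -0.07 to 0.18. Without DBA/1J replicate 2, C4b was called (0.31, edgeR adjusted p = 0.046). Astrocyte markers summed to 5514 to 5687 CPM in the DBA/1J brains against 5993 to 6411 CPM in C57BL/6J. Of the reactive astrocyte list, Serpina3n (1.42, edgeR adjusted p = 7.2e-06) and Aspg (1.03, edgeR adjusted p = 0.0038) were called higher. The part of cell types in brain C3 was not tested. The difference between cord and brain in the strain effect was itself not called for any of the 6 genes (edgeR adjusted p = 0.52 to 0.79 in a test that called 0.321% of genes), so the strain effects in the tissues were not shown to differ.

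**Figure D3:**
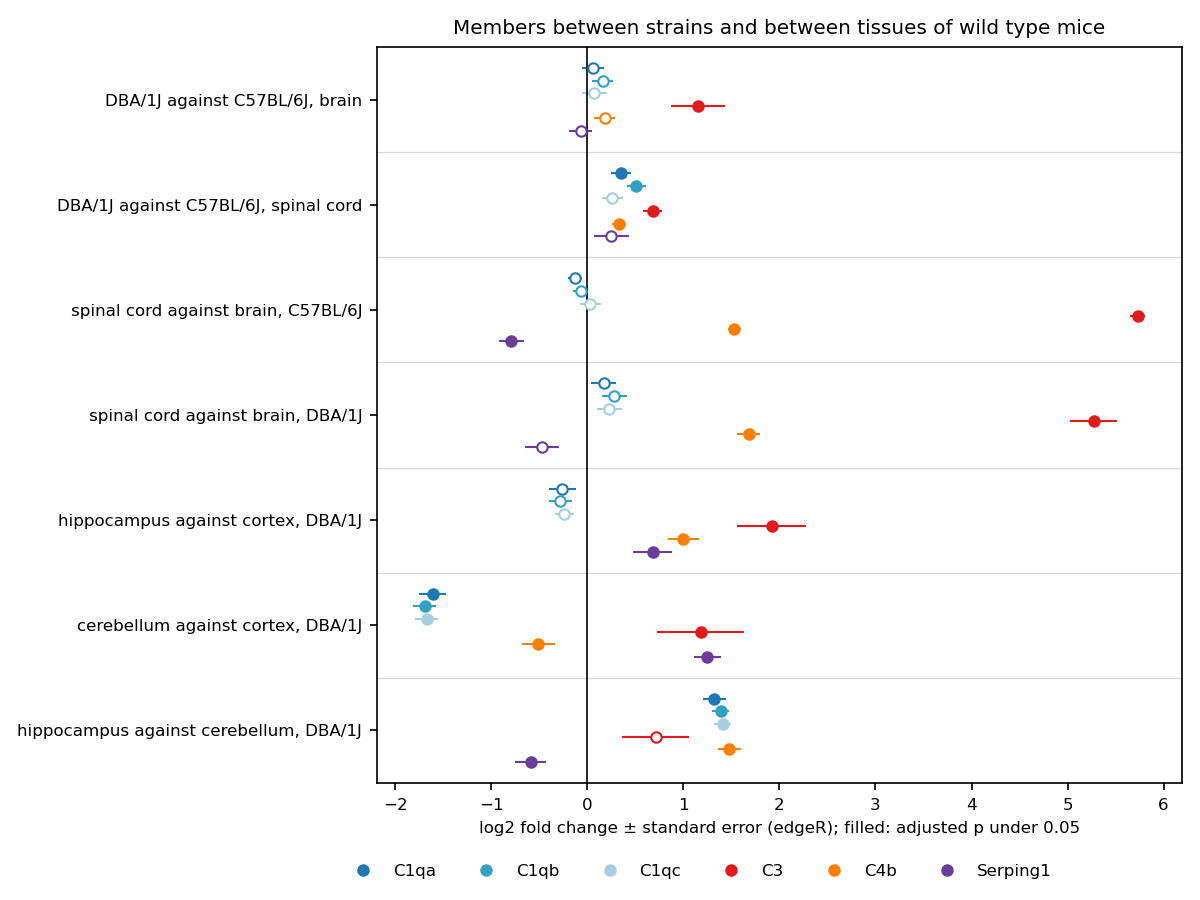
Log2 differences of the 6 genes from edgeR with bars of 1 SE, in the comparisons of tissues within a wild type strain and of DBA/1J with C57BL/6J, filled where the adjusted p was under 0.05. C3 in spinal cord against brain, at 5.73 and 5.27, lies far above every other value, and the 3 C1q genes move as 1 block to -1.61 to -1.69 in cerebellum.

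Few differences were called between Rorb mutants and controls in these genes. Of 78 values (6 genes in 13 comparisons), the main edgeR fits called 4, all higher in the mutant, and 3 of the 4 were in Rorb h3/h3. Over all genes those fits called 0 to 2.09%. DESeq2 gave 4 calls for the h3 allele, 1 for h2 and 0 for each other allele. In the main edgeR fits C1qa, C1qc and Serping1 were called in none of the 13 comparisons. C1qa in Rorb h3/h3 cord was called by DESeq2 (adjusted p = 0.022 on the genes edgeR tested) and without the low-count filter (edgeR adjusted p = 0.031). With that filter off, C3 also passed in Rorb h1/h1 cord (edgeR adjusted p = 0.022) and Rorb h4/h4 cord (edgeR adjusted p = 6.1e-05). The log2 differences that were not called ran from -0.16 to 0.29 for C1qa, -0.18 to 0.24 for C1qc, -0.22 to 0.18 for C1qb, -0.21 to 0.42 for C4b, -0.61 to 0.98 for C3 and -0.15 to 1.19 for Serping1.

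C4b rose in Rorb h3/h3 mice in both tissues. Brain levels were 32.7, 34.3, 39.5 and 37 CPM in Rorb h3/h3 against 23.7, 23.6 and 22.3 CPM in C57BL/6J. Every mutant brain was above every control, and above every one of the other 20 brain libraries. The log2 difference was 0.63 (SE 0.07), or 1.55-fold, with an edgeR adjusted p of 0.008, the fifth smallest p of 17688 genes. This comparison called 0.164% of genes, 0.0509% as higher, and 1 of the 6 complement genes. With a replicate block, where samples share only a number, C4b was not called (0.61, SE 0.09, edgeR adjusted p = 0.19).

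In spinal cord, C4b was at 85.2, 88.7, 105 and 103 CPM in Rorb h3/h3 against 61.9, 68.7 and 71.7 CPM in C57BL/6J, again with no overlap. The log2 difference was 0.50 (SE 0.07), or 1.42-fold (edgeR adjusted p = 0.0078), and without C57BL/6J replicate 1 it was 0.44 (edgeR adjusted p = 0.064). Here 1.01% of 17512 genes were called, 0.331% as higher, and 2 of the 6 complement genes. The other was C1qb, at 19.2, 21.1, 20.6 and 22.2 CPM against 16, 16.5 and 17.2 CPM, also without overlap (0.33, SE 0.07, 1.25-fold, edgeR adjusted p = 0.034). That call was lost when any 1 library other than Rorb h3/h3 replicate 1 was left out (0.30 to 0.35, edgeR adjusted p = 0.072 to 0.19). It was also lost with labelled sex as a covariate (0.31, edgeR adjusted p = 0.11) and with a replicate block (0.30, edgeR adjusted p = 0.096). C1qa had a log2 difference of 0.29 (SE 0.08, edgeR adjusted p = 0.099), which passed without Rorb h3/h3 replicate 1 (0.35, edgeR adjusted p = 0.025). C3 (0.13, edgeR adjusted p = 0.22), C1qc (0.12) and Serping1 (-0.06) were not called. C3 was nonetheless higher in every Rorb h3/h3 cord than in every control cord. In both tissues C4b was highest in Rorb h3/h3 replicates 3 and 4, which share an identifier series and an age of 8.0 weeks, and the mice of 9.6 and 8.3 weeks, replicates 1 and 2, were also above every control. The median of the 6 genes was 0.21 in each tissue, beside 0.005 in brain and -0.002 in cord over all genes.

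Some interferon, microglia and reactive astrocyte genes were higher in the same cords. Of 20 interferon response genes, 5 were higher in Rorb h3/h3 cord (Ifit1, Ifit2, Ifit3, Oasl2, Usp18), with a median of 0.52, and their sum was 181 to 226 CPM against 144 to 155 CPM in C57BL/6J. The antiviral gene Ifit3 was at 18.6, 14.5, 15.4 and 22 CPM against 7.99, 8.7 and 8.27 CPM (1.08, edgeR adjusted p = 0.0018). Ifi27 (0.35, edgeR adjusted p = 0.1) and Ifitm3 (0.14) had the highest levels of that list and were not called. Of 10 reactive astrocyte genes 2 were higher, Serpina3n and the chemokine gene Cxcl10, the latter at 1.44, 1.5, 1.72 and 2.6 CPM against 0.291, 0.305 and 0.401 CPM, while the sum of that list, 1331 to 1647 CPM against 1575 to 1677 CPM, was not. Of 15 microglia markers 3 were higher, among them Ctss (0.38) and Trem2 (0.49), and the microglia sum was 385 to 417 CPM against 355 to 368 CPM. Astrocyte markers summed to less in Rorb h3/h3 cord, 6273 to 6792 CPM against 6889 to 7020 CPM, as did oligodendrocyte markers, 18784 to 23824 CPM against 24401 to 25684 CPM, with 1 of 10 genes called lower in each list. Mural cell markers also summed to less, 229 to 259 CPM against 273 to 280 CPM in cord and 235 to 258 CPM against 265 to 269 CPM in brain, with 0 of 8 called by edgeR in either tissue (2 in cord and 3 in brain at an unadjusted p under 0.05). In Rorb h3/h3 brain, edgeR called 0 of 20 interferon (median 0.26), 0 of 12 reactive astrocyte and 0 of 15 microglia genes, with 3 of each list at an unadjusted p under 0.05. The part of these genes' cells in the values of C4b and C1qb was not tested.

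Near C4b, which lies in the major histocompatibility complex, 0 of 90 tested genes within 1 Mb were called in Rorb h3/h3 brain. In cord 4 of 90 (4.44%) were called, H2-D1, H2-K1, H2-Q4 and Tap2, beside 1.01% of all 17512 genes there. Within 1 Mb of C1qb, 0 of 30 were called there.

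In Rorb h2/h2 mice, C3 rose in spinal cord. The cords had 117, 120, 123 and 116 CPM against 86.7, 86 and 80 CPM in C57BL/6J, well separated. They differed by 0.50 on the log2 scale (SE 0.04), or 1.41-fold, with an edgeR adjusted p of 9.6e-07, the third smallest p of 17464 genes. This comparison called 2.09% of genes, 0.876% as higher, and 1 of the 6 complement genes. C1qa (0.19, edgeR adjusted p = 0.12), C1qb (0.16, edgeR adjusted p = 0.19), C1qc (-0.03), C4b (-0.08) and Serping1 (0.02) were not called. Beside C3, 1 of 20 interferon genes (Ifit3) and 1 of 11 reactive astrocyte genes (Vim) were higher, and 0 of 15 microglia markers (median 0.12, 5 at an unadjusted p under 0.05). The microglia sum was nonetheless 387 to 398 CPM against 355 to 368 CPM, and the astrocyte sum 6504 to 6652 CPM against 6889 to 7020 CPM, with 3 of 10 astrocyte and 3 of 10 neuron genes called lower. A single gene was higher in each list of 9 meningeal (Col1a2), 6 Schwann cell (Sox10) and 10 oligodendrocyte (Opalin) genes. The part of these cells in the C3 values was not tested. Of the 35 tested genes within 1 Mb of C3, Plin3 was the 1 called (2.86%).

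C3 in Rorb h2/h2 brain was at 1.7, 1.9, 4.46 and 4.3 CPM against 1.45, 1.6 and 1.64 CPM. Mutants 3 and 4, which share an identifier series and an age of 9.4 weeks, were high, while mutants 1 and 2, of another series and 7.9 weeks, were close to the controls. In this group series and age cannot be told apart, and the log2 difference of 0.98 (SE 0.32) was not called (edgeR adjusted p = 0.51). Of the 6 genes, 0 were called in that brain comparison by edgeR and 0 by DESeq2, with 2 at an unadjusted p under 0.05, where edgeR called 0.136% of genes.

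The h2 and h3 alleles arose on the same albino background, and their direct comparison was added after these values were seen. In cord it called 0.763% of 17298 genes. C4b was higher in Rorb h3/h3 than in Rorb h2/h2 (0.58, SE 0.06, 1.49-fold, edgeR adjusted p = 0.00097), whose cords had 62.9, 59.9, 68.4 and 64.4 CPM. C3 was lower in Rorb h3/h3 (-0.37, SE 0.03, edgeR adjusted p = 0.00011), whose cords had 87.3, 96, 91.2 and 93.2 CPM. In neither gene did the alleles overlap, and C1qb did not pass (0.16, edgeR adjusted p = 0.27). In brain, C4b differed by 0.51 (SE 0.08, edgeR adjusted p = 0.041 in a comparison that called 0.063% of genes), a call lost when any 1 brain other than Rorb h3/h3 replicate 1 was left out (edgeR adjusted p = 0.051 to 0.15).

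**Figure D4:**
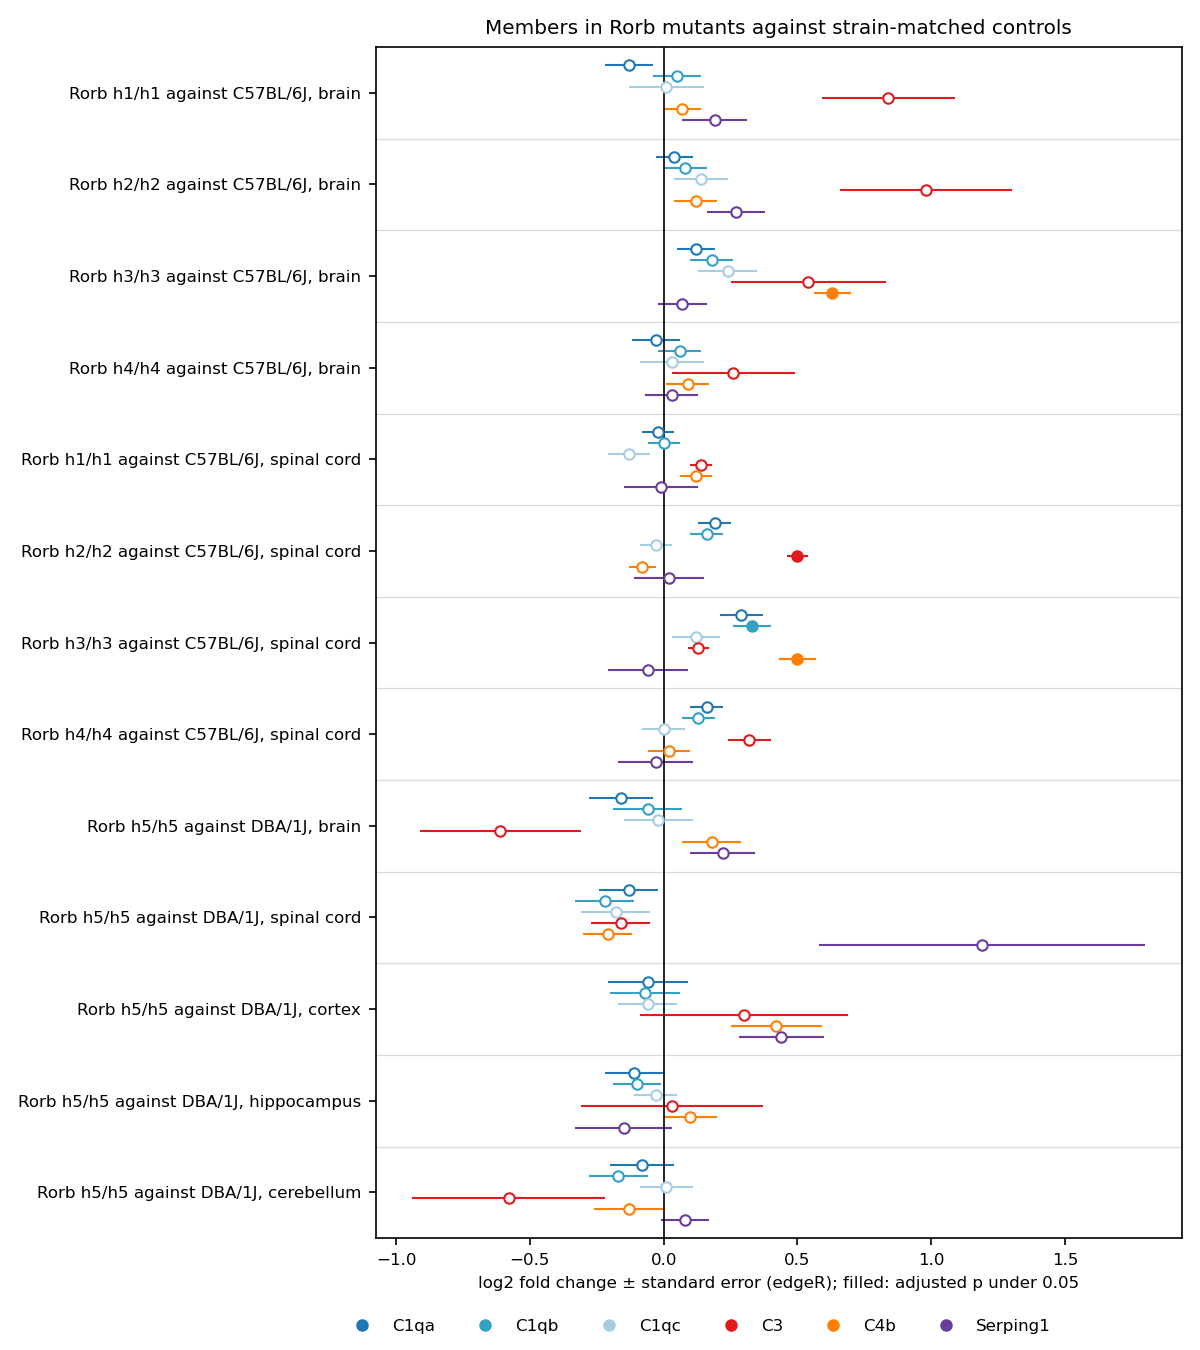
Log2 differences of the 6 genes from edgeR with bars of 1 SE for each Rorb mutant against its strain-matched control in each tissue, filled where the adjusted p was under 0.05. The 4 filled points are C4b in Rorb h3/h3 brain and cord, C1qb in Rorb h3/h3 cord and C3 in Rorb h2/h2 cord.

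The other alleles gave no call in the main edgeR fits or by DESeq2. Without the low-count filter C3 was called in Rorb h1/h1 cord (0.13, edgeR adjusted p = 0.022) and in Rorb h4/h4 cord (0.32, edgeR adjusted p = 6.1e-05). In Rorb h1/h1, 0 of 12 values were called by edgeR and 0 by DESeq2, with 2 at an unadjusted p under 0.05, both of C3. Brain C3 was at 2.64, 3.79 and 1.89 CPM against 1.45, 1.6 and 1.64 CPM, higher in each mutant than in each control (0.84, SE 0.25, edgeR adjusted p = 1), in a comparison that called 0% of genes. The difference was 0.54 without replicate 2, the highest mutant. The Hox markers of replicate 2 summed to 4.87 CPM, against 0.993 and 0.536 CPM in replicates 1 and 3. Cord C3 was at 95.2, 91.5 and 90.3 CPM against 86.7, 86 and 80 CPM (0.14, SE 0.04, edgeR adjusted p = 0.18, with 0.289% of genes called), also without overlap.

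In Rorb h4/h4, 0 of 12 values were called by edgeR and 0 by DESeq2, with 2 at an unadjusted p under 0.05, C1qa and C3 in cord. Cord C3 was at 93.2, 120, 91.8 and 117 CPM, all above the controls, with replicates 2 and 4 near the Rorb h2/h2 level and 1 and 3 near 92 CPM (0.32, SE 0.08, edgeR adjusted p = 0.074, with 1.75% of genes called). It passed without replicate 1 or replicate 3 (0.38, edgeR adjusted p = 0.023 and 0.028). In every cord of h1, h2, h3 and h4, C3 was above all of the C57BL/6J cords that these alleles share as controls. In Rorb h4/h4 brain 0.703% of genes were called, and the 6 genes had log2 differences of -0.03 to 0.26. Serpina3n was called higher in Rorb h4/h4 cord (0.42, edgeR adjusted p = 0.00085) and brain (0.58, edgeR adjusted p = 0.0073), and Ifit3 in cord (0.44, edgeR adjusted p = 0.04). Hspb1, of the reactive astrocyte list, was called lower in brain (-0.75, edgeR adjusted p = 0.031). C4b differed by 0.02 in cord and 0.09 in brain.

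In Rorb h5/h5 mice, 0 of 30 values were called by edgeR and 0 by DESeq2, with 3 at an unadjusted p under 0.05. In edgeR these comparisons called 0% of genes in brain and in cortex, 0.00581% in cord, 0.0118% in hippocampus and 0.012% in cerebellum, and 0 of the 18 region values was called without the replicate 3 libraries either. In cortex, C4b was at 27.8, 23 and 21.1 CPM against 17.8, 13.8 and 22 CPM in DBA/1J (0.42, SE 0.17, edgeR adjusted p = 0.76), ranges that overlap. Serping1 in cortex was at 6.99, 5.59 and 5.21 CPM against 4.45, 3.79 and 4.84 CPM (0.44, SE 0.16, edgeR adjusted p = 0.76), all above the controls. In the same cortices reactive astrocyte markers summed to 245 to 327 CPM against 169 to 199 CPM, meningeal markers to 157 to 180 CPM against 123 to 149 CPM and border macrophage markers to 14.8 to 17.2 CPM against 10.7 to 13.8 CPM. Hippocampus markers, whose region has more C4b, summed to 206, 140 and 125 CPM in the mutant cortices against 92.5, 87.1 and 139 CPM in DBA/1J, in both groups highest in the cortex with the most C4b. The part of these markers was not tested. The third value at an unadjusted p under 0.05, C4b in cord, went the other way (-0.21, edgeR adjusted p = 0.56).

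Serping1 in Rorb h5/h5 cord was at 4.83, 3.89 and 23.6 CPM against 4.47, 3.79 and 6.08 CPM. The value of 23.6 CPM, in replicate 3, was above the 3.27 to 6.08 CPM of the other 23 cords. All 10 of 10 meningeal genes, 6 of 7 Schwann cell genes and 6 of 8 border macrophage genes were higher in that library than in any other cord, with the meningeal genes Igf2 at 184 CPM and Dcn at 72.5 CPM. Its microglia sum of 405 CPM lay within the range of the others. The log2 difference of Serping1 was 1.19 (SE 0.61, edgeR adjusted p = 0.6) with that library and -0.13 (SE 0.19, edgeR adjusted p = 0.86) without it.

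Whether an allele acted differently on brain and cord was tested as an interaction. The main fit entered brain and cord of a mouse as separate libraries, and with the mouse as a block no member was called either. Of 36 values, strain included, 0 were called by edgeR and 0 by DESeq2, with 2 at an unadjusted p under 0.05, C3 in Rorb h1/h1 (-0.70) and C4b in Rorb h5/h5 (-0.38), both at an edgeR adjusted p of 1. The C3 value was -0.35 without Rorb h1/h1 replicate 2 and -0.92 without replicate 3, and with all low-count genes kept it was called (-0.70, edgeR adjusted p = 0.0071). Over all genes edgeR called 0% in every allele except h4, with 0.0054%. On the same genes DESeq2 called 4 in h1, 9 in h2, 7 in h3, 75 in h4 and 4 in h5, and edgeR with all low-count genes kept called 33, 7, 5, 100 and 0. For C4b in Rorb h3/h3 the cord effect minus the brain effect was -0.13 (SE 0.11), for C1qb 0.16 (SE 0.11), and for C3 in Rorb h2/h2 -0.47 (SE 0.29). The effects were thus not shown to differ between the tissues.

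Brain C3 varied within groups beside traces of Hox RNA. As deviations from the group mean on the log2 scale, Pearson's r between C3 and the summed Hox markers was 0.83 over the 24 brains, and 0.88 over the 23 without DBA/1J replicate 1. For C4b it was 0.57 and 0.65. The Rorb h2/h2 brains had Hox sums of 0.41, 0.48, 6.85 and 2.86 CPM, in which the 2 with high C3 were the 2 with high Hox, while the C57BL/6J brains had 1.45, 2.39 and 0.85 CPM, the lowest in the brain with the highest C3. Rorb h1/h1 brains had Hox sums of 0.993, 4.87 and 0.536 CPM beside C3 at 2.64, 3.79 and 1.89 CPM, both highest in replicate 2. The DBA/1J brains had 1.17, 2.03 and 5.26 CPM beside C3 at 4.22, 1.97 and 4.21 CPM, so that replicate 1 was high in C3 with little Hox. In Rorb h3/h3 the sums were 0.00, 3.21, 2.96 and 5.49 CPM beside C4b at 32.7, 34.3, 39.5 and 37 CPM. Replicate 1, with 0 Hox, had the lowest C4b of that group, at a level above every control. Points share a library, and the part of cord tissue in brain C3 was not tested.

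**Figure D5:**
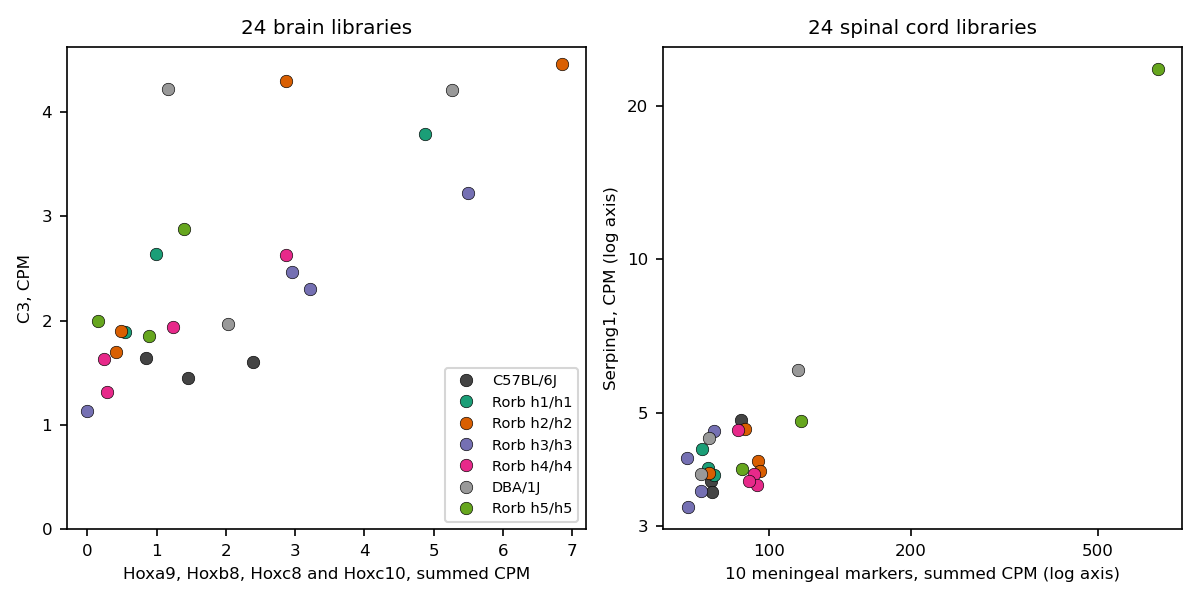
Brain C3 against the summed Hox markers of spinal cord and spinal cord Serping1 against summed meningeal markers, in CPM, with 1 point per library. C3 and Hox deviations from the group mean had r = 0.83 (log2 scale, n = 24), with DBA/1J brain replicate 1 an exception at 4.22 CPM of C3 beside 1.17 CPM of Hox, and the 1 cord with 672 CPM of meningeal markers has 23.6 CPM of Serping1.

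C4b has a near-identical copy, C4a (ENSMUSG00000015451, chr17:34809092-34823460), which RefSeq lists as a transcribed pseudogene. Of the windows of the 5522-base C4b transcript, 33.7% of those of 50 bases and 8.04% of those of 150 bases occur exactly in C4a, so that the split of their reads is an estimate, and both had non-whole counts in 66 of 66 libraries, unlike the other members. C4a took 2.56 to 7.02% of the C4 counts in brain and 0.894 to 2.25% in cord. It was not called in Rorb h3/h3 (brain -0.48, SE 0.20, edgeR adjusted p = 0.45; cord -0.31, edgeR adjusted p = 0.64). C4a was at 0.858 to 1.13 CPM in Rorb h3/h3 brain and 1.28 to 1.64 CPM in C57BL/6J brain. The part of reads assigned to one copy or the other in the C4b values was not tested.

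Few other genes of the pathway were called in the mutants. From 50 further complement genes, 30 to 34 were tested per comparison, and over the 13 mutant comparisons 0 were higher and 1 lower, Cd59a, a regulator of the membrane attack complex, in Rorb h4/h4 brain (-0.45, SE 0.09, edgeR adjusted p = 0.048). These comparisons called 0 to 2.09% of all genes. The medians of the list lay between -0.06 and 0.06. Clu, a secreted regulator, had the highest level of the list at 469 to 661 TPM in brain, while the C1 proteases C1ra and C1s1 had medians of 1.17 and 1.21 TPM and C9, the last component to join the membrane attack complex, was at 0 to 0.29 TPM.

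Between strains, 4 of 32 of these genes were higher and 2 lower in DBA/1J cord, and 4 higher and 1 lower of 32 in brain, beside 21.3% and 11.2% of all genes called, so that these counts are near the background. Cd59a (0.79, SE 0.08, edgeR adjusted p = 1.4e-05), the lectin-pathway protease gene Masp2 (3.65, edgeR adjusted p = 0.00012) and the C3a receptor gene C3ar1 (0.94, edgeR adjusted p = 0.0064) were higher in DBA/1J cord, and the C5a receptor gene C5ar2 (-4.24, edgeR adjusted p = 6.8e-05) and Colec11, a pattern-recognising lectin (-2.53, edgeR adjusted p = 0.014), were lower.

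Between tissues they were divided. Cord against brain called 56.9% of all genes in C57BL/6J and 50.8% in DBA/1J. In C57BL/6J cord against brain 5 of 33 were higher and 9 lower, with Cd59a 1.46 higher (edgeR adjusted p = 1.6e-08) and Vtn, or vitronectin, at -0.73 (edgeR adjusted p = 1.2e-07), and in DBA/1J 5 higher and 5 lower of 31. In cerebellum against cortex 5 were higher and 12 lower of 33, beside 58.1% of all genes called. In hippocampus against cerebellum 16 of 34 were higher and 4 lower, beside 64% of all genes called, among the higher the complement regulators Csmd1 (2.15, edgeR adjusted p = 2.1e-10) and Susd4 (0.83, edgeR adjusted p = 7.4e-08) and the complement receptor subunit Itgam (1.83, edgeR adjusted p = 1.2e-07).

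Genes most like each member were sought among 14795 genes of at least 1 CPM, by the smaller of Pearson's r in 24 brains and in 24 cords on deviations from the group mean. For C1qa they were Nckap1l (0.76 in brain, 0.72 in cord), Ctss (0.75 and 0.70), Tlr13, Mpeg1 and Adgre1. For C1qb they were C1qc, Nckap1l, Csf1r, Laptm5 and Ctss, and for C1qc Lyz2 (0.78 and 0.75), Fcgr3, Grn, C1qb and Anpep. For C3 they were Sspo (0.68 and 0.69), Msn, Hspb8, Padi2 and Gstm7, and for C4b Nde1 (0.82 and 0.74), Ptpdc1, Fth1, Amotl1 and Arhgef10. For Serping1 they were Pdgfrb (0.64 and 0.67), Six5, Ptgds (0.61 and 0.90), 1700017B05Rik and Mfap2. These libraries share depth and dissection, and Rorb h5/h5 cord replicate 3 enters the values for Serping1. With Spearman's rho in place of Pearson's r, 1 of the 5 genes named for Serping1, 2 of those for C1qa and 3 of those for each other member were again among the first 5.

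Over the 20 group means, the C1q genes were most like each other, with Cx3cr1, Rasgrf2 and Arhgdig next. C3 was most like Fgfrl1, Npc2 and Fam120b, C4b like Rxra, Gyg1 and Gnas (0.974 to 0.975) and Serping1 like Cdh1, Twsg1 and Col1a1 (0.889 to 0.901). Between members, C3 and C4b had r of 0.84 over brains, 0.52 over cords and 0.91 over group means. Over the same brains their r with the summed Hox markers was 0.83 (C3) and 0.57 (C4b). Over group means both genes are highest in cord. Serping1 had r of 0.52 to 0.58 with the C1q genes over brains and of -0.57 to -0.54 over group means, in which cerebellum is low in C1q and high in Serping1.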

How the data were processed

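PolyA-selected libraries of 66 samples were sequenced as 150 bp paired ends. The authors trimmed the reads with Trim Galore, aligned them with STAR to GRCm38 and deposited RSEM expected counts per gene, with the gene annotation not given in the sources used here. The TPM values deposited by the authors are RSEM's, normalised for length and depth, and were used only to compare levels between genes (their order and the ratios of the C1q chains). Between 32889755 and 59120536 counts per library were available, and none of the 78 pairs of replicates was identical.

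After rounding (5.07% of the expected counts were not whole), genes were compared by the quasi-likelihood test of edgeR 4.0.16 under R 4.3.3 (filterByExpr, TMM factors, Benjamini-Hochberg adjusted p under 0.05 over all genes tested). The interaction of tissue with strain or genotype was fitted on brain and cord together. The mouse was not a term in the main fits between tissues or of the interaction, and was a block only in an alternative. CPM values are TMM-scaled over all libraries, and log2 CPM used a prior of 0.5. Genes were grouped as labelled, and every labelled library was kept. Fits were tested on simulated data. The members and the marker lists were chosen with earlier results of these data known. Named beyond the members were C4a, the 5 other complement genes of smallest adjusted p between strains and between tissues and any called in a mutant, the 2 highest members of a list set beside a result, and the genes most like a member (5 by library, 3 by group mean). Further genes of the marker lists, the neighbours of called members, and Clu, C1ra, C1s1 and C9 were named after their values were seen. A few single marker genes are not reported here. Tissues of one replicate were taken to come from the same mouse, from matching animal identifiers in the names of the deposited data with equal labelled sex and age; the labels do not say so in words. Among the mutant and strain comparisons, deviations of same-numbered samples correlated above 0.1 in every pair in Rorb h1/h1 (r from 0.15 to 0.54). Every pair was also above 0, without reaching that level, in Rorb h4/h4 brain (0.06 to 0.31) and Rorb h5/h5 hippocampus (0.08 to 0.24). Alternatives were DESeq2 1.42.0 on all genes with its own filter and, added after the data were seen, on the genes edgeR tested without it, edgeR with DESeq2's size factors, all genes kept without the low-count filter, labelled sex as a covariate, a replicate block, all groups in one fit and each replicate left out.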

Additional observations from a re-analysis of the deposited data

How the results depend on the processing

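No value of a called member changed direction. Without the low-count filter C3 was called in Rorb h1/h1 cord (1 member against 0; 0.13, edgeR adjusted p = 0.022), in Rorb h4/h4 cord (1 against 0; 0.32, edgeR adjusted p = 6.1e-05) and in the Rorb h1/h1 interaction (1 against 0), and so were C1qa in Rorb h3/h3 cord (0.29, edgeR adjusted p = 0.031) and C3 in hippocampus against cerebellum (0.70, edgeR adjusted p = 0.047). With labelled sex as a covariate 1 member in place of 2 was called in Rorb h3/h3 cord (C1qb 0.31, edgeR adjusted p = 0.11) and 0 in place of 1 in the Rorb h3/h3 against Rorb h2/h2 brains. With DESeq2 the members called were 4 rather than 3 in Rorb h3/h3, by C1qa in cord (adjusted p = 0.022 on the genes edgeR tested), which edgeR without the filter also called.

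With replicates left out, members called ranged from 0 to 3 in Rorb h3/h3 cord (main 2), 0 to 1 in Rorb h4/h4 cord, 0 to 2 between the strains in brain, 2 to 5 in hippocampus against cortex and 0 to 1 between the Rorb h3/h3 and Rorb h2/h2 brains. C3 in Rorb h2/h2 cord was called under every setting and without any 1 library (0.46 to 0.52). C4b in Rorb h3/h3 brain was called without any 1 library (0.58 to 0.67).

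A replicate block, where samples share only a number, called 0 members in place of 1 in Rorb h3/h3 brain (C4b 0.61, SE 0.09, edgeR adjusted p = 0.19; pairs had r from -0.43 to 0.03), 1 in place of 2 in Rorb h3/h3 cord and 0 in place of 1 between the strains in brain. Among pairings by mouse it changed the calls given with the tissues and no other.

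Over all genes, DESeq2 on the genes edgeR tested (an alternative chosen after seeing the data) called more than edgeR in every mutant comparison. The counts in parentheses are those of edgeR with all low-count genes kept, which are higher than those of DESeq2 in some comparisons and lower in others. In brain DESeq2 called 20 against 0 (37) in Rorb h1/h1, 92 against 24 (80) in Rorb h2/h2, 178 against 29 (86) in Rorb h3/h3 and 413 against 125 (359) in Rorb h4/h4. In cord it called 110 against 50 (477) in Rorb h1/h1, 522 against 365 (783) in Rorb h2/h2, 423 against 176 (380) in Rorb h3/h3 and 568 against 305 (686) in Rorb h4/h4. In Rorb h5/h5 it called 62 against 0 (22) in brain, 86 against 1 (25) in cord, 60 against 0 (20) in cortex, 43 against 2 (16) in hippocampus and 48 against 2 (68) in cerebellum. On all genes with its own filter, DESeq2 called 17 to 451 in the brains and 142 to 570 in the cords of h1 to h4, and 43 to 91 in Rorb h5/h5.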
